A study of Mus musculus with 6 samples.

Results

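The nuclear genes for the subunits of oxidative phosphorylation were followed in liver RNA of Townes mice, a model of sickle cell disease. Members were chosen by name alone, as the rows of the count tables whose symbols carry the family stems of the 5 complexes (Nduf, Sdh, Uqcr, Cox4 to Cox8 and Atp5). The rule took 84 of 24421 genes: 37 of complex I, 4 of complex II, 8 of complex III, 18 of complex IV and 17 of complex V. Of these, 78 had enough counts to test, namely 36, 4, 8, 13 and 17. The stems also take genes that are not stable subunits. Cox7a2l encodes a factor that joins complexes into supercomplexes, Atp5s a coupling factor and Atp5sl a protein of complex I assembly (now called Dmac2). They miss Cyc1 and Usmg5, which encode subunits of complexes III and V and are given further on. Ndufa4 was kept with complex I for its name, although its product is now counted to complex IV.

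All 6 mouse samples were labelled liver, total RNA, at 7 months of age. The AS group (3 libraries) carries the Townes alleles Hbatm1(HBA)Tow with Hbbtm2(HBG1,HBB*)Tow on the one side and Hbbtm3(HBG1,HBB)Tow on the other, so that globin comes from human genes put in the place of the mouse ones and the beta-globin is in part sickle and in part normal. The SS group (3 libraries) carries the same alpha-globin allele and only the sickle allele Hbbtm2(HBG1,HBB*)Tow. AS is therefore a carrier control and no wild-type mouse is among the groups compared. The labels do not say whether the replicates are separate animals, nor give sex, litter or batch, so the p-values reflect only how these libraries vary, which may be technical.

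Oxidative phosphorylation takes place in the inner mitochondrial membrane. Complex I takes electrons from NADH and complex II from succinate, complex III passes them from ubiquinol to cytochrome c, and complex IV hands them to oxygen, while the proton gradient built on the way drives ATP synthesis by complex V. Hepatocytes are rich in mitochondria and use this ATP for gluconeogenesis, urea synthesis and transport into bile. Most subunits are encoded in the nucleus, and many of their promoters are known targets of NRF1, GABP, ERR factors and YY1, with PGC-1 proteins as coactivators. The subunits that mitochondrial DNA encodes were not analysed here.

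Promoters are shown for the member with the most negative fold change of each complex. That of Cox6b2, the only member whose SS values all lay above the AS values, is shown as well. The windows hold 150 bases before and 20 bases after the RefSeq start (build GRCm38.p6), 5′ to 3′ on the gene's strand. Capitals mark matches on either strand to the searched motifs: the NRF1 core TGCGCATGC and its part GCATGCG, the ETS or GABP motif CCGGAAG, the ERR core AAGGTCA and the longer TCAAGGTCA that holds it, the YY1 core AAGATGG and the longer AAGATGGCG that holds it, and the Sp1 motif GGGGCGGGG.
Ndufb4 (complex I, chr16:37654349-37654518, minus strand): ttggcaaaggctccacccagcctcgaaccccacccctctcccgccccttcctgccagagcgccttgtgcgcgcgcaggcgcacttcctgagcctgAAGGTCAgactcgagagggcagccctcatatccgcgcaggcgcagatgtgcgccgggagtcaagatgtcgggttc
Sdhb (complex II, chr4:140961121-140961290, plus strand): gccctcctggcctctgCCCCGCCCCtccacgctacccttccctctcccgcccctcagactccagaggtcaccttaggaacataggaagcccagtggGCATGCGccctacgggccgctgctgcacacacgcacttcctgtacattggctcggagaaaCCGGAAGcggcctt
Uqcrc1 (complex III, chr9:108936498-108936667, plus strand): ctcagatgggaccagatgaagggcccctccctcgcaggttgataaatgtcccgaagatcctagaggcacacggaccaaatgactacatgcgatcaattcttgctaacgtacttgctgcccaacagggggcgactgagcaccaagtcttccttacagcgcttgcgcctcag
Cox7b (complex IV, chrX:106015550-106015719, plus strand): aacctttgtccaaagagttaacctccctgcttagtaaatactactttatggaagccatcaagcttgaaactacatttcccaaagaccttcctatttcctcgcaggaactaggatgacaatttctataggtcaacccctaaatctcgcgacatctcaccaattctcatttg
Atp5g2 (complex V, chr15:102671028-102671197, minus strand): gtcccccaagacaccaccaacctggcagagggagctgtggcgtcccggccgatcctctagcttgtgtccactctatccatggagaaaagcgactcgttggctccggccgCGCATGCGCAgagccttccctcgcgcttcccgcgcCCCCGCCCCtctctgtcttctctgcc
Cox6b2 (complex IV, chr7:4753075-4753244, minus strand): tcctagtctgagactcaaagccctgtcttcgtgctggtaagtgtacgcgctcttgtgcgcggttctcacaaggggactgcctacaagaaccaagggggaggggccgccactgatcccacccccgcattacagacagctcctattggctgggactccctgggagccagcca

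Atp5g2 holds an NRF1 core whose letters overlap the shorter NRF1 motif, and an Sp1 motif close to its start. Sdhb holds the short NRF1 motif, an ETS motif and an Sp1 motif, and Ndufb4 an ERR core. The printed windows of Uqcrc1, Cox7b and Cox6b2 hold none of these letters, but outside them Uqcrc1 holds an NRF1 core, after its start, and Cox6b2 an Sp1 motif, further upstream, and they count as holders in the longer windows that follow. In the full windows of 300 bases, a promoter was found for 67 of the 84 members, for 9653 tested genes and for 27025 genes in all. The NRF1 core stood in 7.46% of member promoters, 3.09% of those of tested genes and 1.59% of all. The longer ERR element stood in 2.99%, 0.269% and 0.407%, and the longer YY1 motif in 8.96%, 3.20% and 1.48%. These member shares rest on few promoters: 5 of 67 for the NRF1 core, 2 for the ERR element and 6 for the YY1 motif. The ETS motif stood in 22.4%, 18.0% and 9.14%, and Sp1 in 14.9%, 21.6% and 11.6%. A match is a string of letters and was not tested as a binding site in these livers.

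The libraries held 6670011 to 13700194 gene reads, of which members took 1.36% to 2.42%. Liver identity was plain from the hepatocyte markers, which summed to 100908 to 144526 CPM in AS and 82849 to 110565 CPM in SS. CPM, the unit used throughout, is a gene's count scaled to a common library size with trimmed-mean (TMM) factors. Of 11 hepatocyte markers tested 10 had lower fitted values in SS and 0 were called by edgeR, with a median log2 fold change of -0.39 (-0.41 without SS replicate 3). Markers of several other cell types had higher values in SS: erythroid precursor markers summed to 45.95 to 64.5 CPM in AS and 253 to 512 CPM in SS (5 of 10 called higher), and markers of dividing cells to 9.24 to 13.1 and 95.4 to 165 CPM (7 of 10 called higher). Neutrophil markers (2 of 7 called higher) summed to 8.54 to 9.08 and 28.9 to 93.8 CPM, and monocyte and macrophage markers (5 of 10) to 157 to 236 and 210 to 592 CPM. Kupffer cell markers (0 of 10) summed to 794 to 1079 and 987 to 2446 CPM, stellate cell markers (2 of 11) to 384 to 449 and 511 to 799 CPM, and cholangiocyte markers (1 of 6) to 99.2 to 118 and 157 to 293 CPM. Sinusoidal endothelium markers (0 of 10 called, 369 to 595 CPM over all libraries) were lower in 5 of 10, with a median of -0.11, and -0.42 without SS replicate 3. Lymphocyte markers (0 of 6 called, 5.64 to 28.4 CPM) were lower in 2 of 6. Markers that are low in AS, such as those of neutrophils and dividing cells, may have had enough counts to test only through SS, where they are high. The called counts of these lists are therefore given as a description. In bulk RNA, fewer cells of a type and less RNA per cell cannot be told apart, and the part of these cell types in the results on the subunits was not tested.

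Subunit genes of all 5 complexes had lower values in SS than in AS liver, with medians between -0.57 and -0.63 (log2) by complex, and none of the 78 tested members passed the test over all genes. By the quasi-likelihood test of edgeR, with p-values adjusted by Benjamini and Hochberg's method, 0 members were called, against 0.967% of the 12622 genes tested (0.0555% lower in SS), and adjusted p ran from 0.171 to 0.975. At an unadjusted p under 0.05, 23 members were lower (3.58% of all genes tested) and 1 was higher (9.12%). Fitted values were lower in SS for 76 of 78 members, against 43.7% of all genes tested, the exceptions being Cox6b2 and Cox7a1. With library totals alone in place of TMM factors, Atp5s, Atp5sl and Ndufs6 also turned higher and 73 members stayed lower. The members' median log2 fold change was -0.59 (interquartile range -0.68 to -0.49), against 0.08 for all genes. DESeq2 called 1 member, Cox6b2, as higher (2.85% of all genes), and limma-voom called 0.

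Abundant liver transcripts at large were also lower in SS. Of the tested members, 70 had a mean of at least 100 CPM, and all 70 were lower in SS. Among all 1477 genes of at least 100 CPM, 81.5% were lower, 15.4% were lower at an unadjusted p under 0.05 (members 21 of 70) and 31.2% had SS libraries all below the AS libraries (members 39 of 70). The 1407 such genes that are no members had a median of -0.33, and the 70 members -0.59. Over all 78 tested members the SS libraries lay wholly below the AS libraries for 42 (9.02% of all genes tested) and wholly above for 1 (12.1%).

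The choice of scaling shifts all genes together. With library totals alone, the median of all genes tested moved from 0.08 to 0.36 and that of the members from -0.59 to -0.32, so that the members' median lay 0.67 and 0.68 below that of all genes under TMM factors and library totals. Under median-ratio and upper-quartile factors the distance was 0.66 and 0.66. The distance was therefore alike under these 4 scalings, and it was 0.38 without SS replicate 3.

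**Figure D1:**
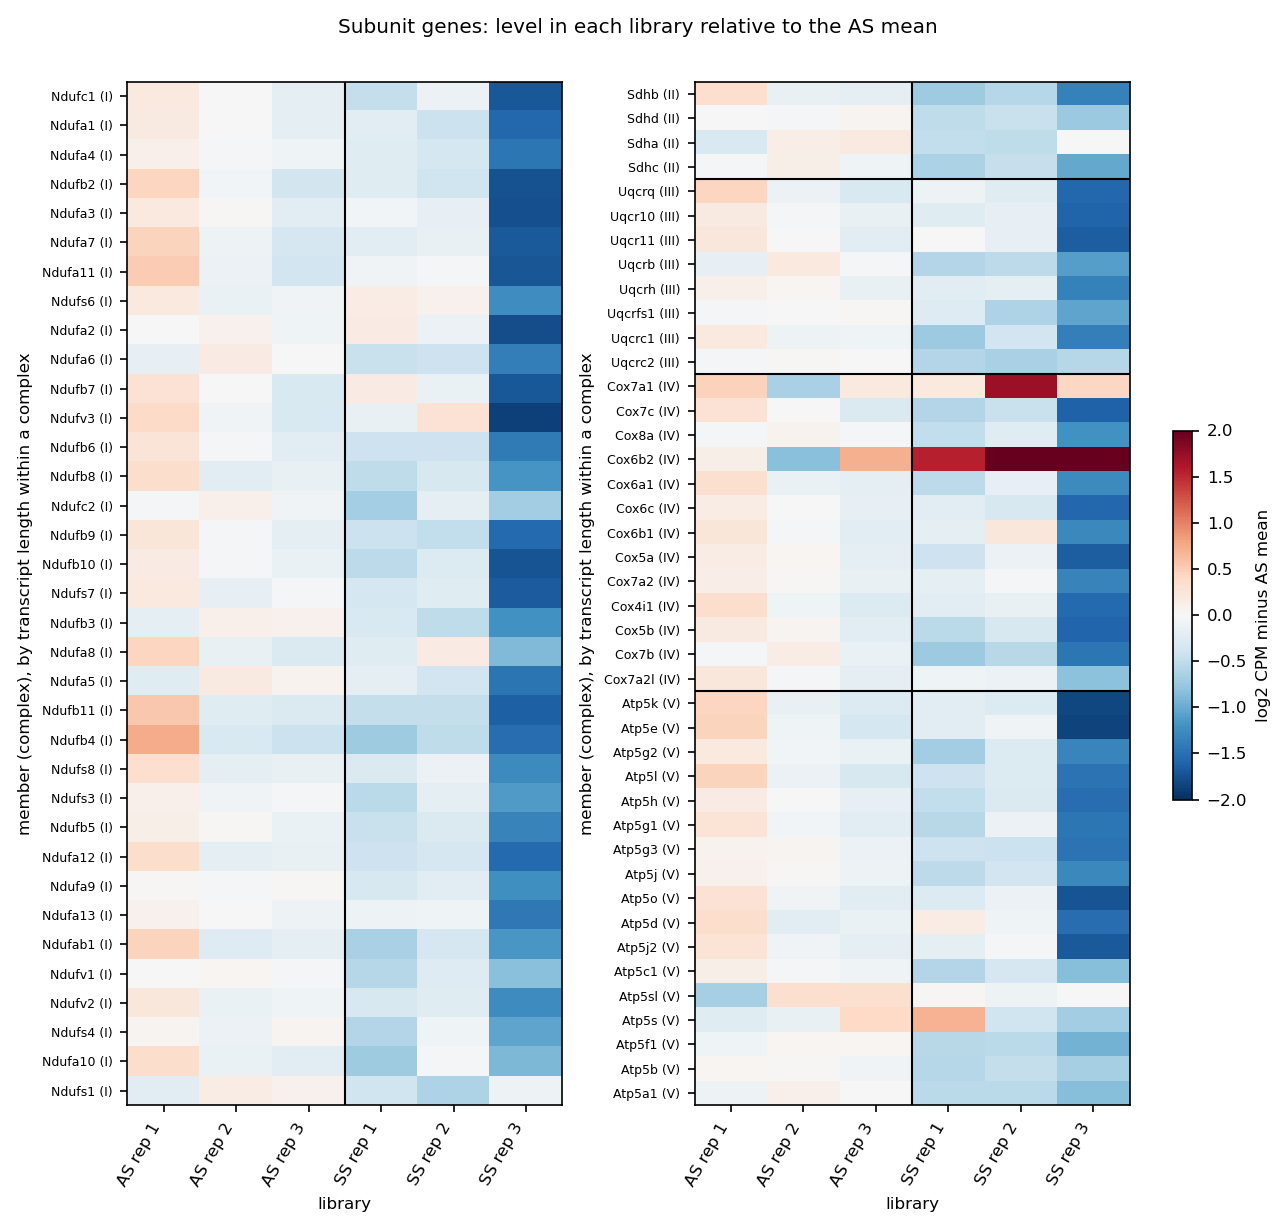
Level of 77 tested subunit genes (rows, by complex and by transcript length within a complex) in the 6 libraries (columns), as log2 CPM minus the AS mean, with colours cut at -2 and 2. SS replicate 3 is the lowest library for 71 of them, the SS columns are mostly below the AS mean, and Cox6b2 and Cox7a1 stand out as higher.

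A single SS library lay far below the other SS libraries. Summed over the members, AS replicates 1, 2 and 3 held 29077, 25839 and 23879 CPM, and SS replicates 1, 2 and 3 held 19956, 21058 and 11263 CPM. The SS libraries were all below the AS libraries, and SS replicate 3 stood apart from both of its group. It was the lowest of the 6 libraries for 72 of 78 members, and AS replicate 1 was the highest for 56. The median deviation of members from the AS mean was 0.18, -0.03 and -0.14 (log2) in the AS libraries and -0.41, -0.27 and -1.36 in the SS libraries. The members where SS replicate 3 was not the lowest were Cox6b2 and Cox7a1, which are low throughout, Atp5sl, and Ndufs1, Sdha and Uqcrc2, whose transcripts are 1896 to 2900 nt long.

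Without SS replicate 3, the member median was -0.36, with 70 of 78 lower (48.6% of all genes) and 0 called (background 0.109% called lower and 0.659% higher). The members that turned higher were Atp5d, Atp5s, Cox6b1, Ndufa2, Ndufs6 and Ndufv3, beside Cox6b2 and Cox7a1. Other genes of at least 100 CPM had a median of -0.28 without that library. SS replicates 1 and 2 both lay below all AS libraries for 44 of 78 members, against 15.2% of all genes tested: 21 of 36 in complex I, 4 of 4 in complex II, 6 of 8 in complex III, 5 of 13 in complex IV and 8 of 17 in complex V. With AS replicate 1 also left out, the median was -0.23 and 61 members were lower (46.9% of all genes). Other genes of at least 100 CPM were close to this, with a median of -0.21 and 1001 of 1407 lower. That comparison of 4 libraries called 6 members lower, Sdha, Atp5a1, Uqcrc2, Atp5f1, Uqcrb and Cox7b (2.49% of all genes were called lower), with adjusted p of 0.0284, 0.0337, 0.0369, 0.0380, 0.0428 and 0.0473 by edgeR. In the same fit 211 of 1407 other genes of at least 100 CPM were called in either direction. Of the 70 members of that level 6 were called, so members were not called more often than other abundant genes.

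The low values of SS replicate 3 followed transcript length. Members are short: their median transcript has 743.5 nt (315 to 3171), against 2631 nt over all genes tested. Relative to the mean of SS replicates 1 and 2, the members' median in SS replicate 3 was -1.31 (log2) up to 600 nt (24 members), -1.17 from 601 to 800 nt (18), -1.02 from 801 to 1200 nt (16), -0.67 from 1201 to 1800 nt (13) and -0.05 from 1801 to 3000 nt (6). The single longer member, Sdhc (3171 nt), stood at -0.49 and so outside this order. Other genes of at least 100 CPM showed the same order in these ranges, at -1.28, -1.04, -0.87, -0.52 and -0.14, and stood at 0.32 above 3000 nt. Short transcripts were thus low in that library whether or not they encode subunits.

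**Figure D2:**
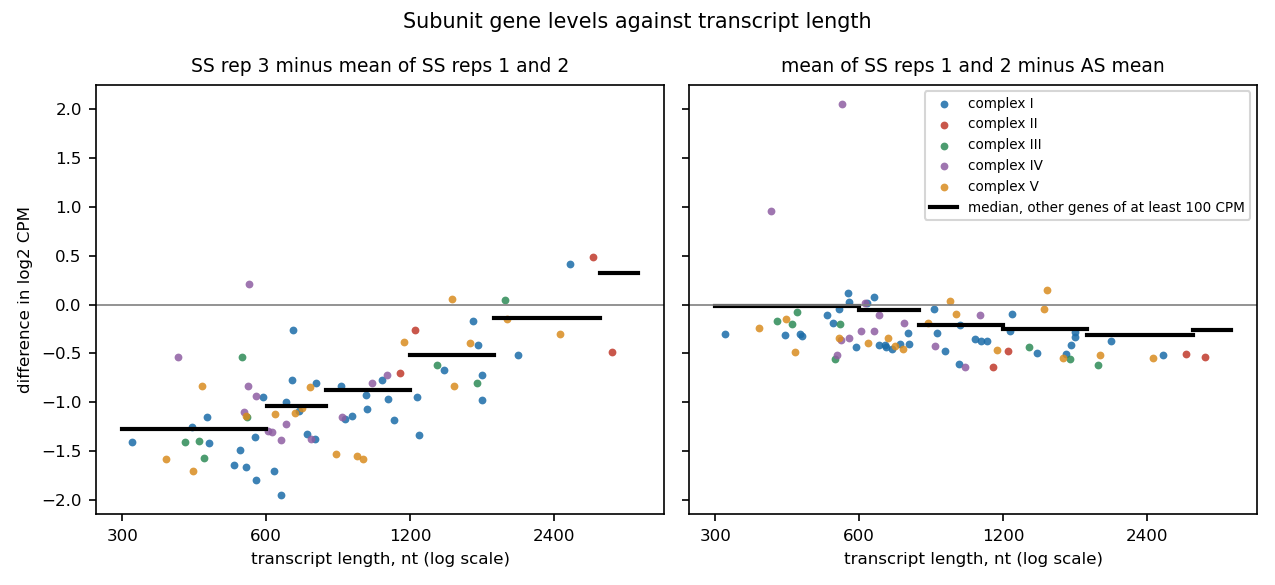
Each point is a tested subunit gene, placed by transcript length in nt (log scale) and by the difference in log2 CPM between SS replicate 3 and the mean of SS replicates 1 and 2 (left) or between that mean and the AS mean (right). Black lines are medians of other genes of at least 100 CPM by length, which run from -1.28 for the shortest to 0.32 for the longest on the left, and the subunit genes follow them there up to 3000 nt, while the single longer one, Sdhc, lies below at -0.49.

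With per-library offsets for transcript length and GC content in the edgeR fit, the member median was -0.40, with 74 of 78 lower (50.1% of all genes) and 0 called (background 0.158% called lower). Other genes of at least 100 CPM had a median of -0.31 in this fit, with 1160 of 1407 lower. The members' median deviation from the AS mean was then -0.30, -0.36 and -0.63 in SS replicates 1, 2 and 3, against 0.03, 0.0056 and -0.04 in the AS libraries. Such offsets together with AS replicate 1 and SS replicate 3 left out (added once the values were known) called 14 members lower (3.74% of all genes), among them Sdha, Sdhb, Uqcrc1, Uqcrc2, Ndufs1, Ndufv1, Atp5a1 and Atp5b. The called share among other abundant genes was not taken in this last fit. Across the 78 members, the Spearman correlation of transcript length with the fold change was 0.01 in the fit of all libraries and -0.41 without SS replicate 3. It is given as a description, since members share libraries. The long members therefore had the more negative values once that library was out.

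Complex I, the NADH dehydrogenase with its 7 core and 28 tested accessory nuclear subunits, had a median log2 fold change of -0.57 (interquartile range -0.66 to -0.50), with all 36 tested members lower. In 8 members the unadjusted p was under 0.05 (3.58% of all genes tested, and 15.4% of those of at least 100 CPM), and in 20 the SS libraries all lay below the AS libraries (9.02% and 31.2%). The median was -0.34 without SS replicate 3 and -0.42 with length and GC offsets. Core subunits had a median of -0.55 and accessory subunits one of -0.61.

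Ndufv1 encodes the core subunit with the flavin that takes electrons from NADH. Its level was 220, 228 and 219 CPM in AS replicates 1, 2 and 3 and 149, 187 and 125 CPM in SS replicates 1, 2 and 3. The groups did not overlap, and the log2 fold change was -0.54 (edgeR adjusted p = 0.408). Ndufs1, the largest of the iron-sulfur subunits, had 103, 134 and 129 CPM in AS and 91.6, 78.8 and 113 CPM in SS. Here SS replicate 3 was the highest SS library and the groups overlapped (log2 fold change -0.37, and -0.53 without SS replicate 3).

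Among accessory subunits of the membrane arm, Ndufb4 had the most negative fold change of the members with a mean of at least 5 CPM. It stood at 204, 98.9 and 90.5 CPM in AS and 74.95, 85.9 and 42.3 CPM in SS. All SS values lay below all AS values, but AS replicate 1 held more than the sum of the other two AS libraries. The log2 fold change was -0.96 (SE 0.373, edgeR adjusted p = 0.326), and it was -0.24 with AS replicate 1 and SS replicate 3 left out. Ndufb9, another membrane arm subunit, had 499.8, 408 and 366 CPM in AS and 313, 301 and 144 CPM in SS (-0.75, SE 0.328, adjusted p = 0.382 by edgeR). Ndufa6, an accessory subunit of the LYR family, had 344, 434 and 383 CPM in AS and 283, 288 and 148 CPM in SS (-0.69, SE 0.306, adjusted p = 0.386 by edgeR). In both genes the groups did not overlap, and SS replicate 3 was the lowest.

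Ndufa4 was the most abundant member of the complex I names per length of transcript, at 1541 CPM per kb over all libraries. It had 897, 826 and 791 CPM in AS and 708, 653 and 306 CPM in SS (log2 fold change -0.59, SE 0.330, edgeR adjusted p = 0.484). Ndufs6, a zinc-binding accessory subunit, lay at the other end of the complex with -0.22, and SS replicates 1 and 2 (189 and 180 CPM) lay inside the AS range of 155 to 195 CPM. Ndufs5 had 0 counts in all 6 libraries. Of the 50-base stretches of its transcript 35.6% also occur in another gene, a processed pseudogene. The reason for the 0 counts was not tested, so the row is not read as a level.

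Complex II, succinate dehydrogenase, is encoded wholly in the nucleus, and its 4 genes were lower in SS in each of these settings. The median log2 fold change was -0.62 with all libraries, -0.54 without SS replicate 3, -0.52 with AS replicate 1 left out as well and -0.56 with length and GC offsets. The same 4 values were -0.57, -0.34, -0.23 and -0.42 in complex I and -0.57, -0.33, -0.30 and -0.36 in complex III. They were -0.59, -0.28, -0.17 and -0.38 in complex IV and -0.63, -0.39, -0.31 and -0.42 in complex V. The 3 larger subunits of complex III (Uqcrc1, Uqcrc2 and Uqcrfs1, 1363 to 1896 nt) likewise held -0.61, -0.56, -0.45 and -0.53. The difference between complexes was not tested, since their members share libraries and the complex II transcripts are long (1142 to 3171 nt). In each of the 4 genes SS replicates 1 and 2 lay below all AS libraries, as in 15.2% of all genes tested. All SS libraries lay below the AS libraries in 3 of them (9.02% of all genes tested, 31.2% of those of at least 100 CPM).

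Sdha, the flavoprotein that oxidises succinate, had 454, 614 and 632 CPM in AS and 398, 393 and 556 CPM in SS. SS replicate 3 overlapped the AS range, and the log2 fold change was -0.34 (SE 0.273, edgeR adjusted p = 0.623) with all libraries and -0.53 without SS replicate 3. Sdhb, the iron-sulfur subunit, had 542, 390 and 376 CPM in AS and 262, 290 and 169 CPM in SS, with no overlap. Its log2 fold change of -0.86 (SE 0.295, 95% interval -1.51 to -0.21) had an adjusted p of 0.258 by edgeR and 0.0845 by DESeq2. The membrane anchors that hold the ubiquinone site and a heme, Sdhc and Sdhd, did not overlap between groups either. Sdhc had 238, 261 and 228 CPM in AS and 157, 176 and 118 CPM in SS (-0.69, SE 0.253, adjusted p = 0.298 by edgeR), and Sdhd had 288, 281 and 300 CPM in AS and 203, 213 and 174 CPM in SS (-0.56, SE 0.238, adjusted p = 0.3699 by edgeR).

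Complex III, the cytochrome bc1 complex, had a median of -0.57 with all 8 members lower, 4 of them at an unadjusted p under 0.05 (3.58% of all genes tested, 15.4% of abundant ones) and 6 with separate groups (9.02% and 31.2%). The median without SS replicate 3 was -0.33. The 3 larger subunits had a median of -0.61 with all libraries and -0.56 without SS replicate 3, and the 5 small ones -0.54 and -0.21. The value of the small subunits thus depended more on that library.

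Uqcrc2, a core protein of the matrix side, was the most even member. It had 318, 335 and 331 CPM in AS and 219, 209 and 221 CPM in SS, which is 328 ± 8.66 and 216 ± 6.49 CPM (SD, n = 3). The log2 fold change was -0.60 (SE 0.233, edgeR adjusted p = 0.320) and -0.63 without SS replicate 3. Its partner Uqcrc1 had 419, 341 and 349 CPM in AS and 224, 281 and 143 CPM in SS, the most negative value of the complex (-0.78, SE 0.296, edgeR adjusted p = 0.316). Uqcrfs1, the Rieske iron-sulfur protein, had 374, 384 and 388 CPM in AS and 318, 249 and 183 CPM in SS (-0.61). In these 3 genes the groups did not overlap.

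Among small subunits, Uqcrb had the lowest p, with 300.4, 384 and 328 CPM in AS and 223, 234 and 157 CPM in SS (-0.72, SE 0.265, edgeR adjusted p = 0.293). Uqcrq was the most abundant of all members per length, at 1733 CPM per kb. It had 1089, 745 and 659 CPM in AS and 760, 686 and 272 CPM in SS, so that the groups overlapped (log2 fold change -0.54), and with AS replicate 1 and SS replicate 3 left out the value was 0.04. Uqcr11 likewise overlapped and went from -0.45 to 0.04 in that setting. Uqcrh, the hinge protein, had 384 to 458 CPM in AS and 167 to 374 CPM in SS (-0.50).

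Complex IV, cytochrome c oxidase, had a median of -0.59 over 13 tested members, of which 11 were lower and 5 had separate groups with SS below. That count is near the 31.2% found among genes of at least 100 CPM, with 9.02% among all genes tested. It is the complex with tissue-specific isoform genes, and the forms known from liver carried nearly all counts. The 10 genes of the liver form or without isoforms had a median of -0.60, and -0.32 without SS replicate 3.

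Cox7b, a small subunit encoded on the X chromosome (106015700 to 106022450, plus strand, mm10), had the lowest p among members with lower values. It had 401, 451 and 370 CPM in AS and 245, 276 and 149 CPM in SS. The SS libraries were all below the AS libraries, and the log2 fold change was -0.87 (SE 0.291, 95% interval -1.51 to -0.23), with an adjusted p of 0.252 by edgeR and 0.0710 by DESeq2. Cox7c, another small subunit, had 595, 492 and 399 CPM in AS and 327, 359 and 160 CPM in SS (-0.81, SE 0.337, edgeR adjusted p = 0.358). Of the 50-base stretches of its transcript 53% occur in other genes, mostly processed pseudogenes. Cox6c had 596, 542 and 478 CPM in AS and 460, 430 and 181 CPM in SS (-0.59), with no overlap, and Cox8a 429, 461 and 426 against 313, 369 and 190 CPM (-0.59), again with none.

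Cox4i1, the main regulatory subunit, had 709, 521 and 461 CPM in AS and 474, 501 and 188 CPM in SS, so that the groups overlapped (log2 fold change -0.54, and -0.22 without SS replicate 3). Cox6a1 (574 to 822 CPM in AS, 270 to 586 in SS, -0.60) and Cox7a2 (272 to 333 CPM in AS, 120 to 295 in SS, -0.42) overlapped as well. Cox6b1 had 468, 390 and 341 CPM in AS and 347, 463 and 162 CPM in SS. Its log2 fold change of -0.30 was 0.01 without SS replicate 3. The supercomplex factor Cox7a2l had 140 to 188 CPM in AS and 90.4 to 150.3 CPM in SS (-0.32).

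Isoform genes known from other tissues stayed near the floor of detection in both groups, with one of them higher in every SS library. Cox6b2, the testis form of subunit 6b on chromosome 7 (4751792 to 4753094, minus strand, mm10), had 7, 2 and 16 counts in AS replicates 1, 2 and 3 and 19, 72 and 54 counts in SS replicates 1, 2 and 3. The means (± SD, n = 3) were 0.812 ± 0.493 CPM for AS and 3.98 ± 1.37 CPM for SS, with a log2 fold change of 2.22 (SE 0.640, 95% interval 0.81 to 3.64). Its adjusted p was 0.171 by edgeR and 0.0440 by DESeq2. The gene passed the filter on low counts only through the SS libraries, where it is high, so these p-values are given as a description. The value was 2.17 without SS replicate 3 and 2.58 with length and GC offsets. Per length of transcript, Cox6b2 made up 0.24% of the Cox6b pair in AS and 1.63% in SS on average, with a highest share of 2.84% in SS replicate 3, the library with the least Cox6b1.

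Cox7a1, the heart and muscle form of subunit 7a, had 14, 4 and 16 counts in AS and 10, 57 and 20 counts in SS (log2 fold change 0.96, SE 0.688, edgeR adjusted p = 0.578). Only SS replicate 2 exceeded the AS range in CPM. Cox6a2, a muscle form, had 0 counts in each AS library and 0, 11 and 4 in SS, and Cox7b2, a testis form, had 10 counts in SS replicate 1 and 0 elsewhere. Cox4i2, the lung form, had at most 4 counts in a library, and Cox8b and Cox8c had 0 in all. A count of 0 allows up to 3 counts, which is 0.217 to 0.483 CPM in these libraries, for counting error only. Striated muscle markers summed to 0.572 to 2.76 CPM in AS and 1.23 to 14.5 CPM in SS, highest in SS replicate 1, with Myh6 at 0 and 1 of 12 (Ttn) high enough to test. Adipocyte markers summed to 0.576 to 4.35 and 15.8 to 71.4 CPM (Plin1 and Lep at 0), pancreatic acinar markers to 3.80 to 5.15 and 2.51 to 3.92 CPM (Cpa1 and Amy2a5 at 0), and the part of such cells in these counts was not tested.

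**Figure D3:**
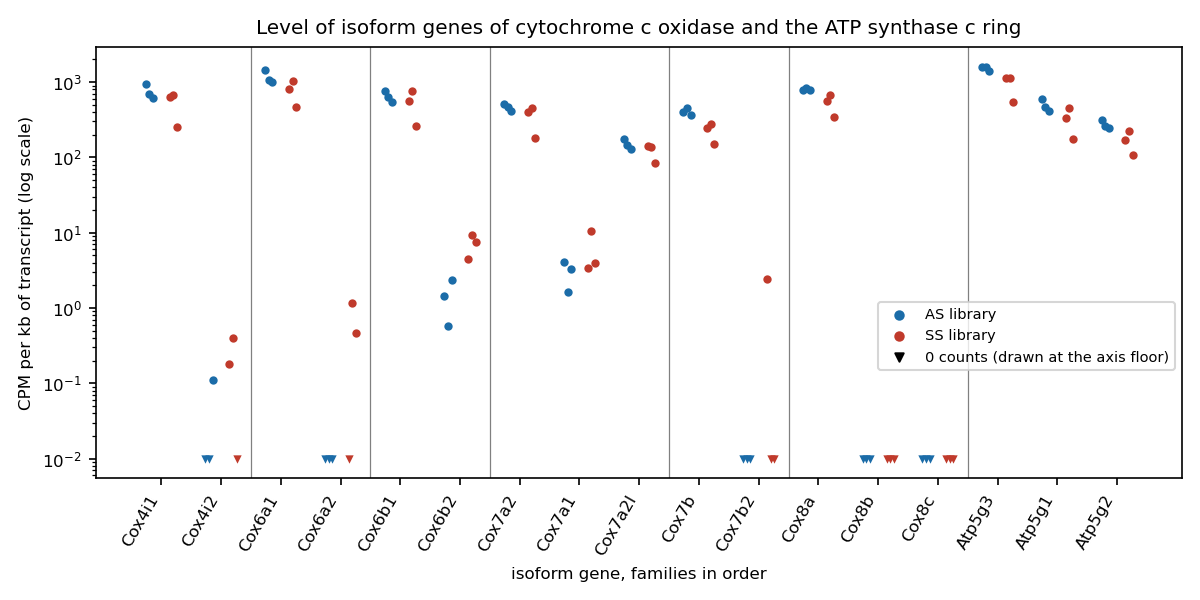
Level per length (CPM per kb of transcript, log scale) of isoform genes of complex IV and of the c ring in each library, with AS in blue and SS in red and counts of 0 as triangles at the axis floor. Isoforms of other tissues reach at most 10.5 CPM per kb, and Cox6b2 is the isoform whose 3 SS points all lie above its AS points.

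Complex V, ATP synthase, had a median of -0.63 with all 17 members lower, 6 of them at an unadjusted p under 0.05 (3.58% of all genes tested, 15.4% of abundant ones) and 8 with separate groups (9.02% and 31.2%). The median was -0.39 without SS replicate 3. By part of the enzyme, the median was -0.56 for the F1 head and central stalk (5 genes), -0.68 for the peripheral stalk (4), -0.70 for the c ring (3) and -0.64 for the accessory membrane subunits (3).

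The head subunits Atp5a1 (alpha) and Atp5b (catalytic beta) were the steadiest. Atp5a1 had 1121, 1288 and 1202 CPM in AS and 824, 825 and 670 CPM in SS (log2 fold change -0.64, SE 0.251, edgeR adjusted p = 0.329). Atp5b, the most abundant member in CPM, had 1915, 1893 and 1784 CPM in AS and 1260, 1346 and 1174 CPM in SS (-0.56, SE 0.246, edgeR adjusted p = 0.379). The groups did not overlap in either gene, and the values without SS replicate 3 were -0.56 and -0.53. Their short neighbours in the central stalk behaved otherwise: Atp5e had 659, 457 and 380 CPM in AS and 418, 462 and 135 CPM in SS (-0.56), and Atp5d had 213 to 316 CPM in AS and 86.4 to 274 CPM in SS (-0.35, and 0.0019 without SS replicate 3).

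In the peripheral stalk, Atp5f1 (subunit b) had 579, 630 and 631 CPM in AS and 416, 423 and 320 CPM in SS (-0.67, SE 0.250, edgeR adjusted p = 0.310). Atp5j (subunit F6) and Atp5h (subunit d) had -0.68 and -0.68, with separate groups, and Atp5o, the oligomycin-sensitivity subunit, had -0.56 with overlap. The accessory subunits Atp5j2, Atp5k and Atp5l had -0.48, -0.64 and -0.67, and their groups overlapped. Atp5k, at 819 CPM per kb the third most abundant of the complex per length, had 102 CPM in SS replicate 3 against 298 to 486 CPM in the other libraries.

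The c ring is made by 3 genes that encode the same mature protein. Atp5g3 had 1145, 1130 and 1010 CPM in AS and 819, 816 and 392 CPM in SS (-0.70, SE 0.320, edgeR adjusted p = 0.404). Atp5g1 had 407, 325 and 287 CPM against 228, 308 and 123 CPM (-0.63), and Atp5g2 had 138, 115 and 109 CPM against 74.3, 99.1 and 47.97 CPM (-0.71, SE 0.291, adjusted p = 0.351 by edgeR). Per length, the shares of the 3 genes were alike in the groups: Atp5g3 made up 66.8% in AS and 66.1% in SS, Atp5g1 21.3% and 22.0%, and Atp5g2 11.9% and 11.9%. All 50-base stretches of the Atp5g2 transcript (100%) and 56.2% of those of Atp5g1 occur in other genes, mostly pseudogenes, so their split is uncertain. The non-subunit genes of the complex V names lay near 0, Atp5s at -0.05 (4.62 to 12.4 CPM over all libraries) and Atp5sl at -0.10 (21.3 to 43.2 CPM), the former turning positive in 8 alternative settings.

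**Figure D4:**
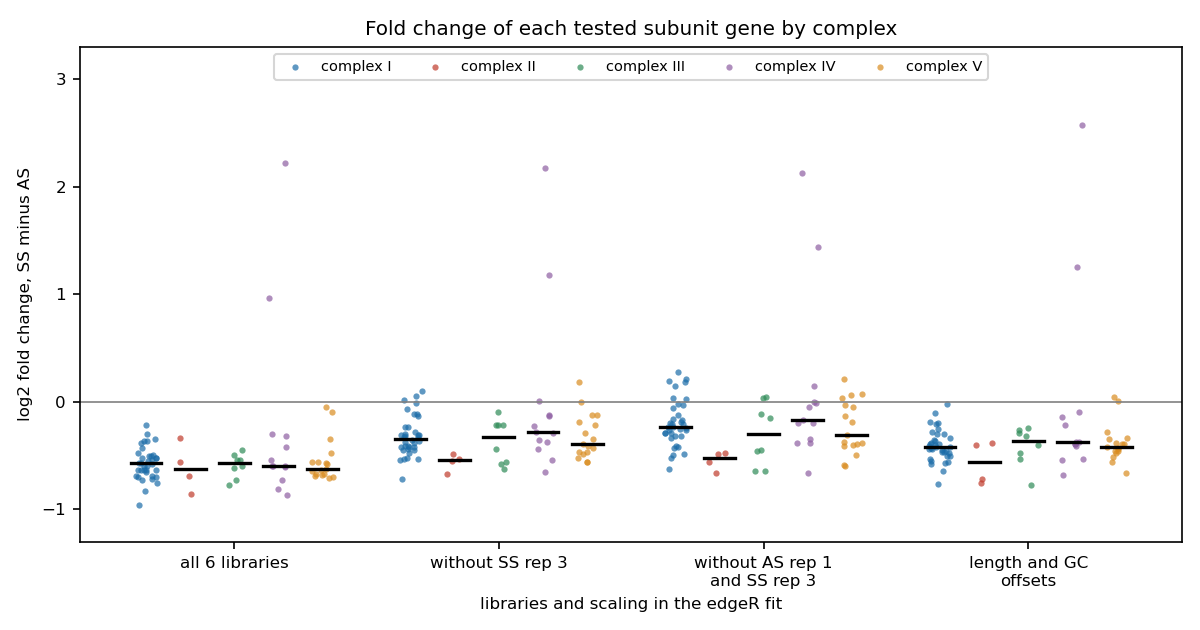
Log2 fold change (SS minus AS) of each tested subunit gene by complex in 4 edgeR fits, with a point per gene and a black line at the median of each complex. The medians run from -0.57 to -0.63 with all 6 libraries and move toward 0 without SS replicate 3, least in complex II (-0.62 to -0.54).

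The balance between complexes stayed close in 5 of the 6 libraries. Complex I took 29.1% to 30.8% of the summed member CPM in all libraries but SS replicate 3 (27.3%), complex III 11.99% to 13.2% (11.7%), complex IV 17.1% to 19.2% (15.5%) and complex V 33.1% to 34.7% (36.4%). Complex II took 5.09% to 6.43%, and 9.03% in SS replicate 3. The shares of complexes II and V were thus highest, and those of complexes I, III and IV lowest, in that library.

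Members that share sequence with other genes did not carry the pattern alone. The 17 tested members with at least 25% of their 50-base stretches in another gene had a median of -0.69, and the other 61 had -0.56. Counting may drop or split reads that align to several places, so the levels of the former are uncertain.

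Set against other gene groups of the same libraries, the members were lower than cytosolic ribosomal protein genes, which are as short (median 737 nt). The summed member CPM divided by that of the ribosomal protein genes was 0.706, 0.872 and 0.886 in AS and 0.662, 0.573 and 0.702 in SS. The groups did not overlap, but SS replicate 3 lay very close to AS replicate 1. The ribosomal protein genes had a median log2 fold change of -0.25 (75 of 81 tested lower, 0 called) that was 0.0061 without SS replicate 3 and 0.0071 with library totals alone. The lowest p in that list were those of Rps27l (log2 fold change -0.56) and of Rps27, which lay at 0.264 to 2.74 CPM. Divided by the mitochondrial ribosomal protein genes, the members stood at 5.64, 6.45 and 6.34 in AS and 5.61, 5.28 and 5.26 in SS, again with no overlap but with SS replicate 1 close to AS replicate 1. Divided by the hepatocyte markers, they stood at 0.201, 0.246 and 0.237 in AS and 0.241, 0.191 and 0.132 in SS, where the groups overlapped. The mean was lower in SS by each of the 3 references, while the overlap of the libraries depended on the reference, and no test was made of these sums. By the hepatocyte markers SS replicate 1 lay inside the AS range and SS replicate 3 was the lowest library. These markers also have longer transcripts (median 2375 nt) than the members (743.5 nt), and short transcripts were low in SS replicate 3.

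Genes that serve the complexes had mostly lower fitted values too, and 0 of them were called by edgeR. Beside the counts that follow, 43.7% of all genes tested and 81.5% of those of at least 100 CPM were lower. The 7 tested genes that the name pattern misses had 6 lower (4 of 7 with library totals alone), with a median of -0.36. Of these Cyc1, the cytochrome c1 of complex III, had 364, 351 and 323 CPM in AS and 240, 243 and 157 CPM in SS (-0.70, SE 0.265, edgeR adjusted p = 0.316), and Usmg5, a small ATP synthase subunit, had 187 to 357 CPM in AS and 101 to 202 CPM in SS (-0.75). Complex I assembly factors were lower in 15 of 15 (10 of 15 with library totals alone), with a median of -0.49, and included Ecsit (-0.69) and Nubpl (-0.68), which delivers iron-sulfur clusters. Assembly factors of complexes II to V were lower in 28 of 33 (17 of 33 with library totals alone), with a median of -0.29, and included Cox16 (-0.74) and the heme O synthase Cox10 (-0.63).

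Mitochondrial ribosomal protein genes were lower in 75 of 76 (60 of 76 with library totals alone), with a median of -0.41, and -0.23 without SS replicate 3. Among them Mrps10 had 43.3, 46.4 and 42.4 CPM in AS and 22.7, 27.6 and 24.2 CPM in SS (-0.82, SE 0.233, adjusted p = 0.162 by edgeR and 0.0408 by DESeq2), and Mrps31 stood at -0.60. Import and outer membrane genes were lower in 25 of 25 (median -0.36), and in 18 of 25 with library totals alone (median -0.09). Among them were the chaperonin Hspe1 (-0.63) and the prohibitin Phb2 (-0.56). Enzymes of the TCA cycle, which feeds complexes I and II, were lower in 14 of 17 (median -0.28, but 0.0089 with library totals alone), among them Sucla2 (-0.63) and Idh3b (-0.61). Electron-feeding and carrier genes were lower in 17 of 22 (median -0.38), and in 16 of 22 with library totals alone (median -0.09). Within that list Ucp2, an inner membrane carrier, went the other way, with 52.2, 47.7 and 51.3 CPM in AS and 77.6, 162 and 147 CPM in SS (1.36, SE 0.297, adjusted p = 0.0699 by edgeR and 0.0036 by DESeq2). Ucp2 is also a gene of leukocytes, whose markers were higher in SS, and their part in its value was not tested.

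The known regulators of these genes had no direction in common. Of 15 tested, 7 were higher and 8 lower, 0 were called and the median was -0.04 (0.29 with library totals alone, against 0.36 for all genes). Without SS replicate 3, 9 were lower, and with length and GC offsets 10 were. Ppargc1a, the PGC-1 alpha coactivator, had 7.60, 10.5 and 13.3 CPM in AS and 18.3, 10.1 and 29.9 CPM in SS (0.89, SE 0.409, edgeR adjusted p = 0.405), and 0.41 without SS replicate 3. Its relative Ppargc1b had 2.19, 2.74 and 2.70 CPM in AS and 6.73, 3.41 and 9.31 CPM in SS (1.35, SE 0.482, edgeR adjusted p = 0.283). The SS libraries all lay above the AS libraries, as in 12.1% of all genes tested, and the Ppargc1b value was 0.97 without SS replicate 3. Nrf1 stood at 0.71, with 4.91 to 5.48 CPM in AS and 6.74 to 11.0 CPM in SS (0.45 without SS replicate 3). Tfam, which packages and transcribes mitochondrial DNA, stood at -0.41 and Gabpa at -0.31, which was -0.61 without SS replicate 3. Esrra (0.05) and Yy1 (0.28) turned negative with length and GC offsets (-0.04 and -0.10).

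With 3 libraries a group, the standard errors of members of at least 100 CPM were 0.233 to 0.452 on the log2 scale. The 95% interval included 0 for 49 of these 70 members and a 2-fold lower level for 65, so the test does not show that a member is unaltered. The count of called members was 0 in every fit with all 6 libraries except DESeq2.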

How the data were processed

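Total RNA of mouse liver was sequenced in 3 AS and 3 SS libraries. The authors deposited raw read counts per gene symbol for each library. HISAT2 aligned the reads to mm10 and HTSeq counted them, per the submitters' processing notes, while versions, annotation, strand setting and filters are not given in the sources used here. Without a stated strand setting, overlapping antisense genes cannot be told apart. Counter lines for reads outside genes were left out of library sizes and tests. Among them, records with several alignments were 18.4% to 22.8% in AS and 14.7% to 16.2% in SS. Those in no annotated gene were 40.7% to 42.2% in AS and 43.0% to 53.95% in SS, highest in SS replicate 1. What these differences mean for members that share sequence was not tested.

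From these counts, filterByExpr kept 12622 genes (a minimum count of 10 and a total of 15), with 99.8% of all gene reads. The genotypes were compared in edgeR 4.0.16 (R 4.3.3) by a robust quasi-likelihood fit with TMM factors and a two-sided test, adjusted after Benjamini and Hochberg over every gene tested, and an adjusted p under 0.05 made a call. CPM used the same factors, and its log2 form for single libraries a prior count of 2. Complexes and lists are described by counts and medians with no test. The members, gene lists, motifs and alternatives were chosen with earlier results of these data known, and the parts of the enzymes were assigned after the values were seen.

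Named genes are, in each complex, the 2 members with the lowest p and the 3 most abundant per kb, all Sdh genes, the isoform families, the members of highest and lowest fold change with at least 5 CPM, the 2 genes of lowest p of each pathway list, and 6 regulators. Other members (such as Ndufv1, Ndufs1, Uqcrc2 and Atp5b) were named for their role or evenness after their values were seen, and 1 member counted in the totals is not reported here by name. Transcript lengths (a median principal transcript), GC content and shared 50-base stretches came from GENCODE on the same build, with 23370 symbols matched directly, 648 by an older symbol and 403 unmatched. Promoters came from RefSeq on GRCm38.p6. Alternatives were other scaling factors, other filters, a replicate block, a non-robust fit, DESeq2 1.42.0, limma-voom (limma 3.58.1), libraries left out, AS replicates 2 and 3 summed, and per-library loess offsets (span 0.5) on length and GC content. Combining those offsets with libraries left out was chosen after seeing the data. Reads are not unique molecules, so intervals and floors cover counting error only.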

Additional observations from a re-analysis of the deposited data

How the results depend on the processing

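The complex medians stayed negative in all settings run, from -0.79 to -0.23 in complex I, -0.73 to -0.36 in II, -0.76 to -0.30 in III, -0.79 to -0.17 in IV and -0.85 to -0.31 in V. Library totals alone raised all 5 alike, to -0.31, -0.36, -0.31, -0.34 and -0.37. Called members stayed at 0 except for 1 by DESeq2, 6 with AS replicate 1 and SS replicate 3 left out and 14 with length and GC offsets added to that (chosen after seeing the data). The all genes called count was 122. It was 217 without a filter, 453 by DESeq2, 31 by limma-voom, 31 with AS replicates 2 and 3 summed, 662 and 887 in the 2 fits without AS replicate 1 and SS replicate 3, and 22 to 99 when single libraries were left out. The deviations of samples with the same replicate number correlated at r = 0.05, -0.12 and 0.19, and AS replicate 1 correlated best with SS replicate 2 (0.24). With so few libraries these values cannot settle whether the numbers pair samples, and the labels do not say what the numbers mean. With the replicate block 460 genes and 0 members were called.

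Signs were followed for 48 of the tested members only. Of their 960 values under alternatives, 38 in 12 genes turned sign. With AS replicate 1 and SS replicate 3 left out these were Atp5e (0.071), Cox7a2l (0.0029), Uqcr11 (0.036), Uqcrq (0.041), Cox6b1 (0.15), Atp5s (0.062), Atp5d (0.21), Atp5j2 (0.0333), Ndufa2 (0.0296), Ndufs6 (0.22) and Ndufv3 (0.28), and with offsets added Cox7a2l (0.0003), Cox6b1 (0.0937), Atp5s (0.12), Atp5j2 (0.0175), Ndufs6 (0.0865) and Ndufv3 (0.20). With single libraries left out, Cox6b1 ran from -0.67 to 0.011, Atp5s from -0.59 to 0.19, Atp5d from -0.65 to 0.0019, Atp5sl from -0.37 to 0.0485, Ndufa2 from -0.72 to 0.0185, Ndufs6 from -0.44 to 0.10 and Ndufv3 from -0.82 to 0.0542. With offsets and no SS replicate 3, Cox6b1 gave 0.042, Atp5s 0.28, Ndufa2 0.048, Ndufs6 0.0838 and Ndufv3 0.0721. Atp5s, Atp5sl and Ndufs6 gave 0.20, 0.16 and 0.0336 with library totals alone, Atp5s and Atp5sl 0.045 and 0.0066 with offsets, and Atp5sl 0.0417 with AS replicates 2 and 3 summed. Among regulators, Esrra ran from -0.087 to 0.22 with single libraries left out, and gave -0.080 without AS replicate 1 and SS replicate 3, -0.036 with offsets, and -0.20 and -0.26 with offsets in the fits without SS replicate 3 and without both. Yy1 gave -0.098 with offsets and -0.050 when SS replicate 3 was also left out. Some tested members that were not followed also turned higher with AS replicate 1 and SS replicate 3 left out, such as Ndufa11 (0.20). The cause of these changes of sign was not tested.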

Other observations

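Ndufs5 had 0 counts in all libraries, while BC002163, a processed pseudogene on chromosome 16 (42955631 to 42955949, mm10) that holds 35.6% of the 50-base stretches of the Ndufs5 transcript, had counts that split the libraries across genotype. It had 488, 24 and 32 counts in AS replicates 1, 2 and 3 and 359, 752 and 26 in SS replicates 1, 2 and 3. In CPM that is 56.2, 3.87 and 2.62 in AS and 47.4, 54.5 and 2.03 in SS, so that AS replicate 1 and SS replicates 1 and 2 were high and the other three low. The same libraries also lay above the others, by a smaller margin, in Ndufs6 (180 to 195 against 71.8 to 162 CPM), Atp5d (234 to 316 against 86.4 to 225 CPM) and Ndufa11 (99.5 to 148 against 31.9 to 96.7 CPM). In Ndufs1 and Sdha the same libraries lay below the other three. The split was chosen after the BC002163 counts were seen, and its share over all genes tested was not taken. These members are therefore named as a description and give no result about the subunits.

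Against transcript length, each library had its own slope over the 78 tested members. Spearman's correlation of length with a library's deviation from the mean of the other libraries was -0.33, -0.07 and 0.49 in AS replicates 1, 2 and 3 and -0.49, -0.47 and 0.59 in SS replicates 1, 2 and 3. Over other genes of at least 100 CPM it was -0.39, -0.07 and 0.05 in AS and -0.23, -0.42 and 0.58 in SS. These are descriptions across genes that share libraries.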
